A study of Mus musculus with 54 samples.

Results

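The 10 genes described here are the 9 prostanoid receptor genes and the gene of the prostaglandin transporter, picked by symbol from 26264 entries in the testis and ovary count tables. They are the prostaglandin E2 receptor genes Ptger1, Ptger2, Ptger3 and Ptger4 (receptors EP1 to EP4), the prostaglandin F receptor gene Ptgfr, the prostacyclin receptor gene Ptgir, the prostaglandin D2 receptor genes Ptgdr (DP1) and Ptgdr2 (the chemoattractant receptor of type 2 lymphocytes), the thromboxane receptor gene Tbxa2r and the transporter gene Slco2a1.

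Prostanoids are lipid messengers made from arachidonic acid by the cyclooxygenases and a set of terminal synthases, and they act on cells through G-protein-coupled receptors. Receptors that couple to Gs raise cyclic AMP, those that couple to Gq or G11 release calcium, and those that couple to Gi lower cyclic AMP. In the ovary they are known for their roles in ovulation and in the regression of the corpus luteum.

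The study sequenced messenger RNA from testes and ovaries of mice whose family had drunk a mixture of 2 anti-inflammatory drugs, ibuprofen (IBU) and diclofenac (DCF), with 2hydroxyIBU (2hIBU), a metabolite of the first, and the synthetic oestrogen 17a ethinyl-estradiol (EE2). Ibuprofen and diclofenac are inhibitors of the cyclooxygenases. There were 18 groups of 3 libraries, 9 in each tissue. F1 mice were exposed through the dam's water from 8.5 days post-coitum and then through their own until they were killed at 10 weeks (males, testis) or 8 weeks (females, ovary). Dose 1 was 11.3 ng/L IBU, 90 ng/L 2hIBU, 22.5 ng/L DCF and 2.25 ng/L EE2, dose 2 was 113, 225, 112 and 45 ng/L of these in the same order, and control water held 0.001% ethanol. F2 mice, labelled as untreated, came from crosses of control parents, of a dose 1 or dose 2 mother with a control father, of a dose 1 or dose 2 father with a control mother, or of a dose 2 father with a dose 2 mother (dose 2 couples), and no age is given for them separately. The labels give no strain and do not say whether the 3 libraries of a group came from different litters. A p-value here therefore speaks only of the scatter among the sequenced libraries, which may be technical.

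Total counts were 31.8 to 46.4 M in testis and 35.6 to 102 M in ovary libraries. Levels are given in counts-per-million (CPM) of the library's total, with the SD over libraries. Whole tissue was sequenced, so fewer cells of a type and less RNA per cell cannot be told apart. The summed CPM of 10 germ cell markers was 9454 to 21853 in testis and 15.9 to 50.5 in ovary libraries, and that of 7 granulosa cell markers was 2808 to 5920 in ovary and 70.2 to 103 in testis, as the tissue labels say. In F1, 3 ovary libraries held oviduct epithelium genes, with 193 CPM summed over 8 genes in control A, 1257 in dose 2 A and 474 in dose 2 B against at most 46.7 in the others. Testis libraries A and B of dose 2 couples held epididymis genes, with 5.07 and 4.25 CPM summed over 6 genes and 5 of the 6 above 0, against at most 0.493 CPM in the others, and Lcn5 was at 0 in 22 of the 27 testis libraries.

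RefSeq lists a promoter window, from 250 bases before to 50 after the transcription start, for 9 of the 10 genes, all but Ptger1. The windows of 5 genes are printed here because the results turn on these genes: Ptgfr, the most abundant member in ovary; Tbxa2r, which has 2 listed starts and the only match to the motif of the steroidogenic factor NR5A1; Ptger2 and Ptgdr, which lie close together and have opposite tissue patterns; and Slco2a1, the member with the most CPM in testis. Coordinates are those of GRCm38.p6, each sequence reads 5′ to 3′ on the gene's strand, and capitals mark a motif match.
Ptgfr (chr3:151837479-151837778, minus strand): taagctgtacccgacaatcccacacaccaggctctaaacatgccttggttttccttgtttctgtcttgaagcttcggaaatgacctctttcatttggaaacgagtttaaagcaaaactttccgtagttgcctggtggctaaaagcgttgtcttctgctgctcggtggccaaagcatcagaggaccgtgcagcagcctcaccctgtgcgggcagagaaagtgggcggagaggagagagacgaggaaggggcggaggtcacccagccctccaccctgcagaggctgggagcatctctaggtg
Tbxa2r, start 1 (chr10:81328018-81328317, plus strand): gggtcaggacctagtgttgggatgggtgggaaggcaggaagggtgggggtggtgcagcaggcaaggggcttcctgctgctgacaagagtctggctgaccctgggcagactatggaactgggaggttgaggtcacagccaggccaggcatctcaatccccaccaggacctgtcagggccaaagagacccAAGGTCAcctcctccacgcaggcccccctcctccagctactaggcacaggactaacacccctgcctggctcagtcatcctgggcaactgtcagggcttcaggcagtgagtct
Tbxa2r, start 2 (chr10:81328453-81328752, plus strand): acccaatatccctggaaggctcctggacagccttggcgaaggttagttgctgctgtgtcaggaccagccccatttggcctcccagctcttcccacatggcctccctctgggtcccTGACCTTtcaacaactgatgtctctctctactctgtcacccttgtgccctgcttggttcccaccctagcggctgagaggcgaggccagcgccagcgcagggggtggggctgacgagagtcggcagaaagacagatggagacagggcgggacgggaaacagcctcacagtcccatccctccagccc
Ptger2 (chr14:44987861-44988160, plus strand): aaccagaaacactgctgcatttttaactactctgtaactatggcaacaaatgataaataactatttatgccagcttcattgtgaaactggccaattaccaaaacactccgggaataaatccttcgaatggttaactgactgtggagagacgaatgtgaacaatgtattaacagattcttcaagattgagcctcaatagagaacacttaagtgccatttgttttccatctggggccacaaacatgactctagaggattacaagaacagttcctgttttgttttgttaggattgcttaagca
Ptgdr (chr14:44859326-44859625, minus strand): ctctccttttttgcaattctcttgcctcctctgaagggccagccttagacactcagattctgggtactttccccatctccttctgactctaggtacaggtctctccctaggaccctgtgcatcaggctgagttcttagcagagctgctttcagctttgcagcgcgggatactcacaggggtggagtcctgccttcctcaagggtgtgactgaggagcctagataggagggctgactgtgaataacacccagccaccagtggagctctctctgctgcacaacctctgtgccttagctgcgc
Slco2a1 (chr9:103008237-103008536, plus strand): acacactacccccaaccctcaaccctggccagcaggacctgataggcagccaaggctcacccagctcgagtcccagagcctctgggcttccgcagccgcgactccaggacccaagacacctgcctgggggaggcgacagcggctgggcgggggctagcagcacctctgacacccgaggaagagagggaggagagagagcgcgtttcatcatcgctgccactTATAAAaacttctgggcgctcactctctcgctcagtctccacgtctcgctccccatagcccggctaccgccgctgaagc

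A search for 5 motifs covered both strands of all 10 windows of these genes. The oestrogen response element and the NR5A1 motif share the letters GGTCA. The NR5A1 motif AAGGTCA was in both Tbxa2r windows, on the gene's strand from base -62 at start 1 and on the other strand from base -135 at start 2, and in no other member's window. It is in 4.72% of the 32851 RefSeq promoter windows of 300 bases. The TATA box TATAAA was in the Slco2a1 window from base -29, and is in 13.6% of all windows. The cyclic AMP response element TGACGTCA (in 1.79% of all windows), the AP-1 motif TGANTCA (7.81%) and the palindromic oestrogen response element (0.07%) were in none of the members' windows. A match is a run of letters and was not tested as a binding site. The Ptger2 window has 37.7% G and C, the lowest of the members, and the Ptgdr window 54.7%.

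In ovary the prostaglandin F receptor dominated the set. Ptgfr, whose product couples to Gq and triggers luteal regression, stood between 64.5 and 1149 CPM with a median of 499 over 27 libraries. It held a median of 79.5% of the members' summed CPM, with a range from 30.5 to 91.5%. Per kilobase of exon, the scale on which genes can be set side by side, Ptgfr reached 72.4 ± 41.9 CPM per kb (SD, n = 27). Tbxa2r followed with 6.06 ± 4.23 and Slco2a1 with 5.53 ± 1.82 CPM per kb, 2 values closer than their spread. Ptger2 stood at 2.56 ± 0.55 and Ptger4 at 1.18 ± 0.28 CPM per kb, each apart from its neighbours in the order by more than the SDs. Ptgir (0.52 ± 0.21), Ptgdr2 (0.43 ± 0.26), Ptger3 (0.35 ± 0.12) and Ptger1 (0.27 ± 0.09 CPM per kb) followed, with each closer to the next of these 4 than their spread. Ptgdr was last with 0.014 ± 0.010 CPM per kb, from 0 to 6 counts per library and 0 counts in 5 of 27.

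In testis the members were low, and the order was different. Their summed level was 9.75 to 14.5 CPM, against 211 to 1270 CPM in ovary. Slco2a1, which carries prostaglandins into cells, made up a median of 52.8% of that sum at 6.01 ± 0.87 CPM (SD, n = 27). Per kilobase Ptgdr2 came first with 0.55 ± 0.10 CPM per kb, then Slco2a1 (0.44 ± 0.06), Ptgdr (0.34 ± 0.09), Tbxa2r (0.31 ± 0.16), Ptger1 (0.17 ± 0.06) and Ptgir (0.16 ± 0.04 CPM per kb), neighbours that overlapped within 1 SD. Ptger4 was lower at 0.073 ± 0.019 CPM per kb, and Ptger2, Ptgfr and Ptger3 stood at 0.021, 0.018 and 0.012 CPM per kb with 0 to 12 counts per library. Those 3 genes were below the expression filter in testis and were not tested there, and Ptgdr was not tested in ovary. The plot of all libraries by gene and tissue shows these levels.

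**Figure D1:**
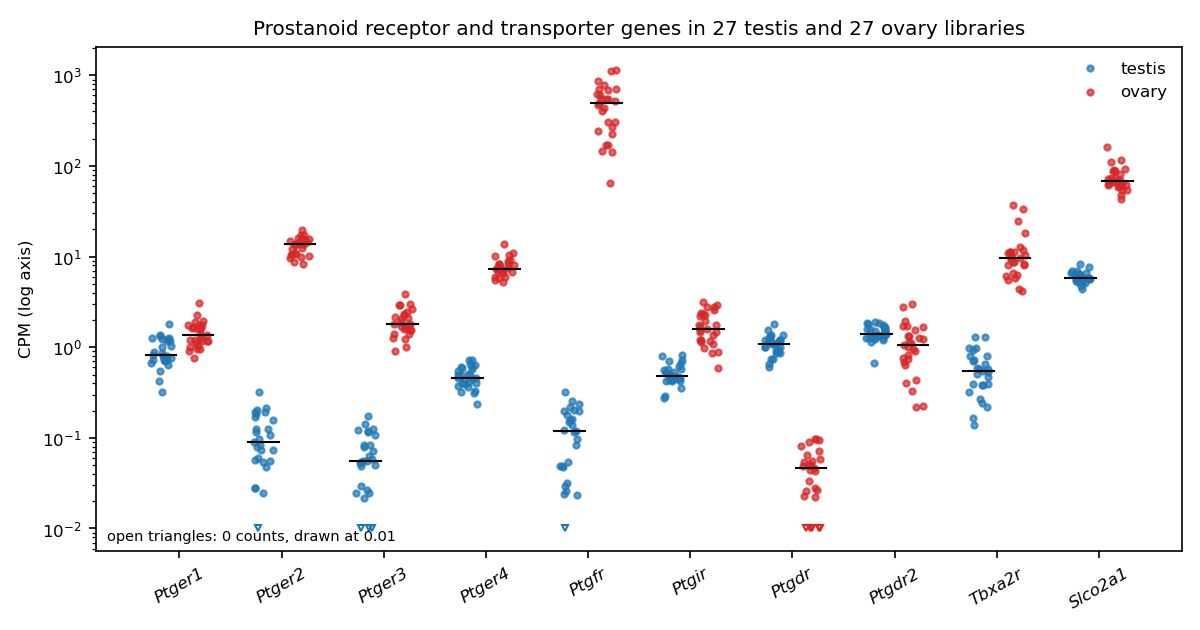
Level of each of the 10 genes in 27 testis (blue) and 27 ovary (red) libraries, in CPM on a log axis, with a bar at the median and libraries with 0 counts drawn as open triangles at 0.01. Ptgfr, Ptger2, Ptger3, Ptger4, Tbxa2r and Slco2a1 lie higher in every ovary library than in any testis library, Ptgdr lies lower, and Ptger1, Ptgir and Ptgdr2 overlap.

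The tissues were compared over the 12 control libraries, 6 of each tissue, with the generation as a term. By edgeR's quasi-likelihood test with Benjamini-Hochberg adjustment, 6 of the 10 members were higher in ovary and 2 were lower, where 90.1% of all 19176 genes tested differed, 45.0% of all genes tested being higher and 45.1% lower. A call between these tissues is therefore common, and the sizes carry the description. Ptgfr was higher by 10.94 ± 0.55 on the log2 scale (SE, adjusted p = 1.3e-10), from 0.171 CPM in testis to 525 in ovary. Next came Ptger2, whose Gs-coupled receptor serves cumulus expansion at ovulation, with 5.87 ± 0.29 (adjusted p = 9.59e-11; 0.147 and 13.0 CPM). Ptger3, which couples to Gi, was higher by 4.77 ± 0.43 and Ptger4, the other Gs-coupled receptor of prostaglandin E2, by 3.53 ± 0.23 on the log2 scale. Slco2a1 and Tbxa2r were higher by 3.03 ± 0.25 and 2.99 ± 0.37. The 2 genes below were both receptors of prostaglandin D2. Ptgdr had a log2 difference of -4.94 ± 0.44 (adjusted p = 8.4e-08), from 23 to 44 counts per testis library to 0 to 4 counts per ovary library. Of its exon bases 22.1% overlap Gm16976 on the opposite strand, and of those of Ptger4 15.3% overlap Gm15937, so counts of both are uncertain without the counting strand. Ptgdr2 had -0.91 ± 0.34 (adjusted p = 0.0218), but its libraries overlapped, and with library size alone as the scale the value was -0.35 (adjusted p = 0.358), while the median of all genes moved from 0.01 to 0.57. Without library B of the testis F2 controls it was -0.79 (adjusted p = 0.0614). Ptger1 (0.40 ± 0.25, adjusted p = 0.151) and Ptgir (0.33 ± 0.27, adjusted p = 0.261) missed the threshold, and both passed it with library size alone, at 0.94 (adjusted p = 0.00292) and 0.88 (0.00654) on the log2 scale. Ptgir also passed it in a fit of all 54 libraries, at 1.16 (adjusted p = 5.97e-12). In CPM, all 6 ovary control libraries of Ptger1 lay above the 6 of testis (lowest 0.958, highest 0.866), while those of Ptgir overlapped. The share of all genes without overlap was not counted between the tissues. The median of all genes was -0.27 with RLE size factors, -0.49 with DESeq2 and -0.15 without the filter on low counts, and no member changed direction under these scales.

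Ptgdr and Ptger2 lie on opposite strands of chromosome 14, with 5 genes between them in the RefSeq order, none of them protein-coding. Their tissue patterns were opposite. In the 27 testis libraries Ptgdr stood between 0.604 and 1.83 CPM and Ptger2 between 0 and 0.319, so Ptgdr was the higher in every one. In the 27 ovary libraries Ptger2 stood between 8.25 and 19.6 CPM and Ptgdr between 0 and 0.0977.

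Other genes of the pathway were mostly higher in ovary as well. Of the genes for arachidonic acid release and cyclooxygenases, 4 of 4 tested were higher, with a median log2 difference of 3.99 against 0.01 for all genes. Of 10 terminal synthases, 8 were higher and 2 lower, among them Ptges, the inducible prostaglandin E synthase, higher by 5.17 ± 0.17. Breakdown and efflux genes were higher in 4 of 5 cases, G proteins and regulators in 16 of 18 with 2 lower, and ovarian target genes of prostaglandins in 7 of 8. Plcb3, the phospholipase C downstream of Gq, was higher by 2.63 ± 0.09, and Ptgfrn, a membrane protein that binds the prostaglandin F receptor, by 4.37 ± 0.15. These lists were chosen by function, and most of all genes also differed between the tissues.

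Members and all genes alike seldom passed the threshold in groups that were exposed or had an exposed parent. Each exposed group was compared with the control of its generation, 7 comparisons per tissue. In testis 1 of 49 tests of members passed an adjusted p of 0.05 by edgeR's quasi-likelihood test, where 0.0317 to 5.33% of all genes did. Unadjusted p was under 0.05 in 8, a level that 8.55 to 24.3% of all genes reached in these comparisons. DESeq2 also called Ptger1 in sons of dose 1 mothers and Tbxa2r in sons of dose 2 couples. In ovary 0 of 63 passed by edgeR's test, where 0 to 0.688% of all genes did. Unadjusted p was under 0.05 in 9, where 5.26 to 24.5% of all genes had it, and DESeq2 called 1. The share of all genes called by DESeq2, under other settings or without single libraries is not given here. Calls of members by those fits therefore have no such share beside them. The 5 F2 comparisons of a tissue share their control libraries, and the 2 F1 comparisons share theirs. The map of log2 fold changes gives all 112 values.

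**Figure D2:**
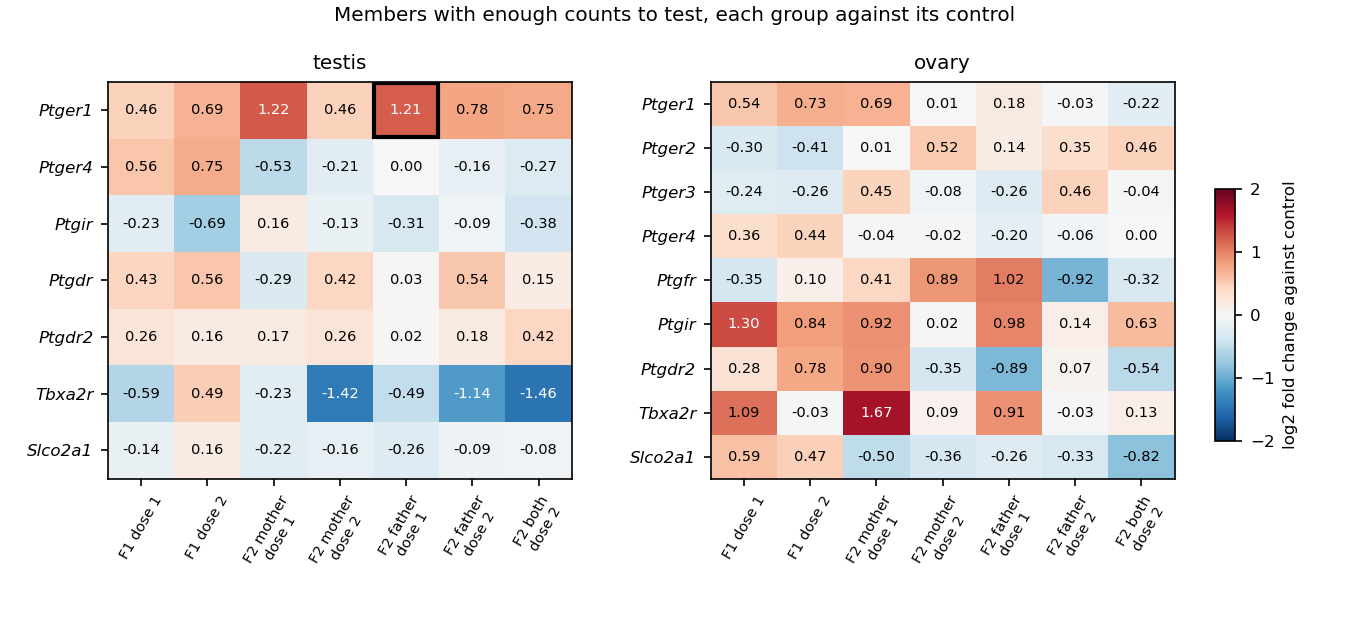
Log2 fold change of each tested member, 7 in testis and 9 in ovary, in each exposed group against the control of its generation, with red for higher and blue for lower. The black frame marks the only value past an adjusted p of 0.05, Ptger1 in F2 testes of dose 1 fathers (1.21), and the largest value in ovary is Tbxa2r in F2 of dose 1 mothers (1.67).

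In F1 testes 0 of 7 tested members were called at dose 1, where 0.0317% of all genes were, and 0 of 7 at dose 2, where 2.21% were. No member had an unadjusted p under 0.05 in either, and DESeq2 called none. At dose 2 Ptger4 stood at 0.732, 0.500 and 0.503 CPM in libraries A, B and C against 0.446, 0.328 and 0.237 in controls. The groups did not overlap, and the log2 fold change was 0.75 ± 0.36 (SE, adjusted p = 0.238). Ptgdr at dose 2 stood at 1.55, 1.19 and 1.20 CPM against 0.604, 1.11 and 0.883 (log2 0.56 ± 0.26, adjusted p = 0.218), again without overlap. Such non-overlap with higher values held for 20.1% of all genes in that comparison. At dose 1 the only member without overlap was Slco2a1, at 4.42, 5.42 and 5.35 CPM against 5.56, 5.63 and 5.62 (log2 -0.14 ± 0.15), and 7.00% of all genes lay entirely below the controls. The test of any difference among the 3 F1 groups called 0 of 7 members and 0.513% of all genes, with no member at an unadjusted p under 0.05 and none called by DESeq2.

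In F2 testes Ptger1 was lowest in the sons of control parents, with a mean of 0.491 CPM against 0.675 to 1.16 CPM in the 5 groups with an exposed parent. Ptger1 encodes EP1, the receptor of prostaglandin E2 that raises calcium. In the testes of control parents' sons it stood at 0.421, 0.730 and 0.321 CPM. Sons of dose 1 fathers had 1.16, 1.26 and 1.04 CPM, all above the 3 controls. The fold was 2.31 (log2 1.21 ± 0.30, adjusted p = 0.0303), the only call of a member, in a comparison where 3.97% of all genes tested were called, 2.22% of all genes tested as higher. Whole separation with higher values held for 12.5% of all genes there. Counts behind these values ran from 13 to 29 in the control libraries and from 33 to 47 in those of dose 1 fathers, so the gene is close to the limit of this depth. The call rests on single libraries: it was lost without control parents A (adjusted p = 0.129) or C (0.141), without any one of the 3 libraries of dose 1 fathers (0.0646, 0.112 and 0.0637), and with only the 6 libraries compared in the fit (0.0600). Without control parents B, the highest of the 3 controls, it was 1.61 with an adjusted p of 0.00563.

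The sons of dose 1 mothers had almost the same Ptger1 values as those of dose 1 fathers. They stood at 1.01, 1.18 and 1.27 CPM (log2 1.22 ± 0.30), without overlap with the controls, but the adjusted p was 0.0610. DESeq2 put it at 0.0178, and the main test called it without control parents B (0.0137) or without the 2 libraries with epididymis genes (0.0366). In that comparison 0.816% of all genes were called, and 12.2% lay entirely above the controls. Set against each other, fathers and mothers at dose 1 differed by -0.02 ± 0.28 in Ptger1, with an adjusted p of 0.982. At dose 2 the values were lower. Sons of dose 2 mothers had 0.723, 0.663 and 0.640 CPM (log2 0.46 ± 0.31), those of dose 2 fathers 0.803, 0.551 and 1.22 (0.78 ± 0.31), and those of dose 2 couples 0.821, 0.762 and 0.881 CPM (0.75 ± 0.31, adjusted p = 0.156). Without control parents B the value passed the threshold for dose 2 fathers (1.17, adjusted p = 0.0215) and dose 2 couples (1.15, adjusted p = 0.0281). Only the couples' group lay entirely above the controls, where 7.12% of all genes did.

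F1 controls stood at 0.866, 0.707 and 0.797 CPM and overlapped the F2 controls, whose library B was at 0.730. Ptger1 in F2 control parents' sons against F1 controls had a log2 difference of -0.71 ± 0.33 (adjusted p = 0.147), and without control parents B of -1.08 (adjusted p = 0.0483). F1 testes had 1.23, 1.32 and 0.722 CPM at dose 1 (log2 0.46 ± 0.35) and 1.38, 1.80 and 0.767 CPM at dose 2 (0.69 ± 0.34). The 7 comparisons with control ran from 0.46 to 1.22 on the log2 scale, and 5 of them share the F2 control libraries, whose mean was the lowest.

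The libraries came from a stranded kit. Whether the counting used strand is not given in the sources used here, and Ptger1 counts are uncertain for that reason.

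**Figure D3:**
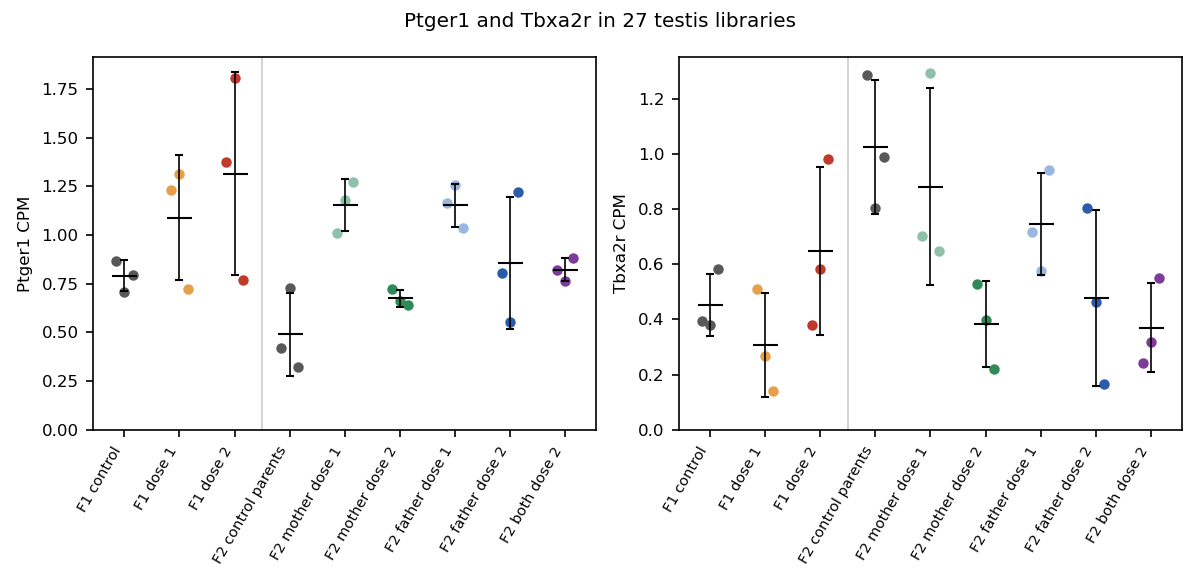
CPM of Ptger1 and of Tbxa2r in each of 27 testis libraries by group (points), with the mean and SD of 3 libraries (bars). Ptger1 is lowest in F2 control parents and Tbxa2r is high there (0.805 to 1.29 CPM).

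Tbxa2r ran the other way in F2 testes, without a call. Its receptor mediates platelet activation and smooth muscle contraction through Gq. Control parents' sons had 1.29, 0.805 and 0.989 CPM, the highest group mean in testis. Sons of dose 2 mothers had 0.530, 0.398 and 0.222 CPM (log2 -1.42 ± 0.45, adjusted p = 0.102), those of dose 2 fathers 0.803, 0.464 and 0.166 (-1.14 ± 0.45, adjusted p = 0.127; -0.72 without library C and -1.73 without A), and those of dose 2 couples 0.242, 0.320 and 0.551 (-1.46 ± 0.45, adjusted p = 0.0688). All 3 dose 2 groups lay entirely below the controls, where 11.7, 12.4 and 12.5% of all genes did in the same order. The 2 dose 1 groups overlapped the controls, at -0.23 ± 0.42 for mothers and -0.49 ± 0.42 for fathers. DESeq2 called Tbxa2r in sons of dose 2 couples (adjusted p = 0.0369), and so did the main test without control parents B (0.0423) or without library C of the exposed group (0.0434). Libraries A and B of that group are the ones with epididymis genes. Without them only library C of the group, at 0.551 CPM, was left, and the value was -0.85. The summed epididymis genes were at 0.173 to 0.210 CPM in control parents, and the part of epididymis tissue in the values with these libraries was not tested.

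The F2 controls stood apart from the F1 controls for this gene. F1 controls had 0.394, 0.379 and 0.581 CPM, all below the 3 F2 controls (log2 1.15 ± 0.47 for F2 against F1, adjusted p = 0.0952). With only the 6 libraries compared in the fit the adjusted p was 0.0449. Between the F2 and F1 controls 14.5% of all genes were called and 0 of 7 members were (2 at an unadjusted p under 0.05, as were 31.0% of all genes, and 0 by DESeq2), and generation cannot be told apart from handling here. Ptger4 was the other member without overlap, at 0.552, 0.604 and 0.494 CPM in F2 and 0.446, 0.328 and 0.237 in F1 controls (log2 0.70 ± 0.34, adjusted p = 0.161), and 18.8% of all genes lay entirely higher. The lowest Tbxa2r values of F2 testes were in the range of F1, where dose 1 had 0.512, 0.268 and 0.140 CPM.

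The other members gave small values in F2 testes. Counts of called members were 0 of 7 for dose 1 mothers, 0 for dose 2 mothers (1.70% of all genes called), 0 for dose 2 fathers (5.33%) and 0 for dose 2 couples (4.59%) by the main test. Unadjusted p fell under 0.05 for 1, 1, 3 and 2 members of these groups and for 17.9, 18.5, 24.3 and 22.1% of all genes, and DESeq2 called 1 member, none, none and 1. Ptgdr, the Gs-coupled receptor of prostaglandin D2, lay entirely above the controls (0.946, 1.01 and 0.865 CPM) in sons of dose 2 mothers, at 1.28, 1.35 and 1.16 CPM (log2 0.42 ± 0.26). It did so in sons of dose 2 fathers too, at 1.01, 1.83 and 1.33 CPM (0.54 ± 0.26, adjusted p = 0.205), where 9.71 and 16.1% of all genes lay higher. Ptger4 in sons of dose 1 mothers lay entirely below the controls (log2 -0.53 ± 0.34), as did 13.3% of all genes. Slco2a1 had the lowest coefficient of variation of the 10 members in testis, 14.5%, with values from -0.26 to 0.16 over the 7 comparisons and SEs of 0.15 to 0.16. Ptgdr2 ran from 0.02 to 0.42 and Ptgir from -0.69 to 0.16, with 0.239 as the lowest adjusted p.

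Which parent had been exposed made no called difference for a member in testis. Fathers against mothers at dose 1 gave 0 of 7 calls with 1.16% of all genes called, and at dose 2 gave 0 of 7 with 0.109%, and 0 members had an unadjusted p under 0.05 in either. DESeq2 called none. Ptgir, the Gs-coupled prostacyclin receptor, was the only one without overlap, at 0.421, 0.465 and 0.440 CPM for dose 1 fathers and 0.534, 0.805 and 0.488 for dose 1 mothers (log2 -0.47 ± 0.34), with 12.3% of all genes entirely lower. The test of any difference among the 6 F2 groups called 0 of 7 members and 6.03% of all genes. Ptger1 was closest with an adjusted p of 0.0670, then Tbxa2r with 0.101, and DESeq2 called both.

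Markers of interstitial cells moved in the same F2 testes. The summed CPM of 7 Leydig cell markers was 1340 to 1491 in control parents' sons, 1189 to 1347 in those of dose 1 mothers and 791 to 1127 in the other 4 F2 groups, and it was 1088 to 1130 in F1 controls. Of these markers 0 fell in sons of dose 1 mothers, 3 of dose 2 mothers, 4 of dose 1 fathers, 3 of dose 2 fathers and 4 of dose 2 couples, among them Cyp11a1 and Cyp17a1, enzymes of steroid synthesis, in the last 4 groups. The summed CPM of 9 macrophage markers was 98.3 to 102 in the sons of control parents, 70.4 to 91.7 in the 5 other F2 groups and 77.1 to 97.5 in F1 controls. Cx3cr1, the fractalkine receptor gene, fell in all 5 F2 comparisons, by 1.02 to 1.67 on the log2 scale, and Csf1r fell in 4 of them. Both were higher in F2 than in F1 controls (1.54 ± 0.22 and 0.65 ± 0.13). The part of these cells in the values of Ptger1, Tbxa2r and the genes that follow was not tested.

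Signalling genes of the pathway fell in the same testes in a few cases. The immediate-early gene Egr1 is listed among ovarian target genes of prostaglandins. It fell in the 5 F2 comparisons, which share their controls, by 0.97 (dose 2 fathers) to 2.02 (dose 1 mothers) on the log2 scale. Adjusted p by edgeR's test ran from 0.00295 to 0.0483, and controls stood between 5.61 and 16.0 CPM. Egr1 was the 1 called gene of 4 tested in that ovarian list each time. Of 18 G proteins and regulators, Gnas, the Gs alpha subunit, fell in sons of dose 2 fathers (log2 -0.41 ± 0.07, adjusted p = 0.00787) and of dose 2 couples (-0.43 ± 0.07, adjusted p = 0.0044). Grk2, a kinase that desensitises receptors, fell in the former (-0.39 ± 0.10), and Gnai2, a Gi alpha subunit, in the latter (-0.31 ± 0.08). Of 10 terminal synthases only Ptgds, the lipocalin-type prostaglandin D synthase, was called, and it fell in sons of dose 2 couples from 176 ± 4.91 to 83.7 ± 6.28 CPM (log2 -1.06 ± 0.24, adjusted p = 0.0266). None of 3 tested genes of arachidonic acid release and none of 5 breakdown genes was called in these comparisons. The F2 controls themselves differed from the F1 controls in genes of these lists: of 10 synthases Hpgds rose (1.33 ± 0.30) and 1 other fell, of 18 G proteins and regulators 3 rose, among them Gnaq (0.41 ± 0.12), and of 5 tested targets Fos fell (-2.67 ± 0.74). No gene of the 5 lists was called in F1 testes or in any exposed ovary group.

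In ovary Ptgfr ran over a 17.8-fold range, and its level went with that of luteal genes. F1 controls had 716, 1106 and 434 CPM in libraries A, B and C, and F2 control parents' daughters 224, 143 and 528 CPM. The log2 difference of F2 against F1 controls was -1.38 ± 0.55 (adjusted p = 0.308; -2.09 without F2 control C, the highest of its group), where 0% of all genes were called. F1 exposed ovaries stood at 694, 601 and 499 CPM for dose 1 and at 543, 784 and 1149 for dose 2, within the range of the F1 controls apart from the last. Daughters of dose 2 fathers had the lowest group mean, with 64.5, 268 and 148 CPM, and overlapped the F2 controls. Daughters of dose 2 mothers had 702, 401 and 543 CPM, so the 2 groups did not overlap. Fathers against mothers at dose 2 gave log2 -1.81 ± 0.60 with an adjusted p of 0.140, and DESeq2 gave 0.0495. The main test called 0.00573% of all genes in that comparison and 0 of 9 members, with 1 at an unadjusted p under 0.05 beside 20.4% of all genes, and 9.36% of all genes lay entirely lower.

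Summed luteal genes other than Ptgfr stood at 1590 to 2219 CPM in daughters of dose 2 fathers, at 2751 to 6176 in those of dose 2 mothers, at 2005 to 5750 in F2 controls and at 3878 to 13514 in F1 controls. Between dose 2 fathers and mothers the ranges of this sum did not overlap.

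Over the 27 ovary libraries Ptgfr went with 3 genes most closely, by Pearson's r of log2 CPM. They were Lipg, the endothelial lipase gene (r = 0.966, within groups 0.964), Epdr1 (r = 0.915) and Trpm6, a magnesium channel gene (r = 0.908). Lipg ran from 61.6 to 1409 CPM. The luteal sum is that of Lhcgr, Prlr, Akr1c18, Star, Parm1 and Sfrp4, all above 0 in every ovary library. It ran from 1590 to 13514, and Ptgfr followed it with r = 0.849 (Spearman's rho 0.911, r = 0.702 within groups and 0.805 without the 2 farthest libraries). It ran against the summed granulosa genes (r = -0.738) and oocyte genes (r = -0.726). These are descriptions over 27 libraries that share groups and depth, CPM values are shares of one total, and the part of luteal tissue in the differences between groups was not tested.

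**Figure D4:**
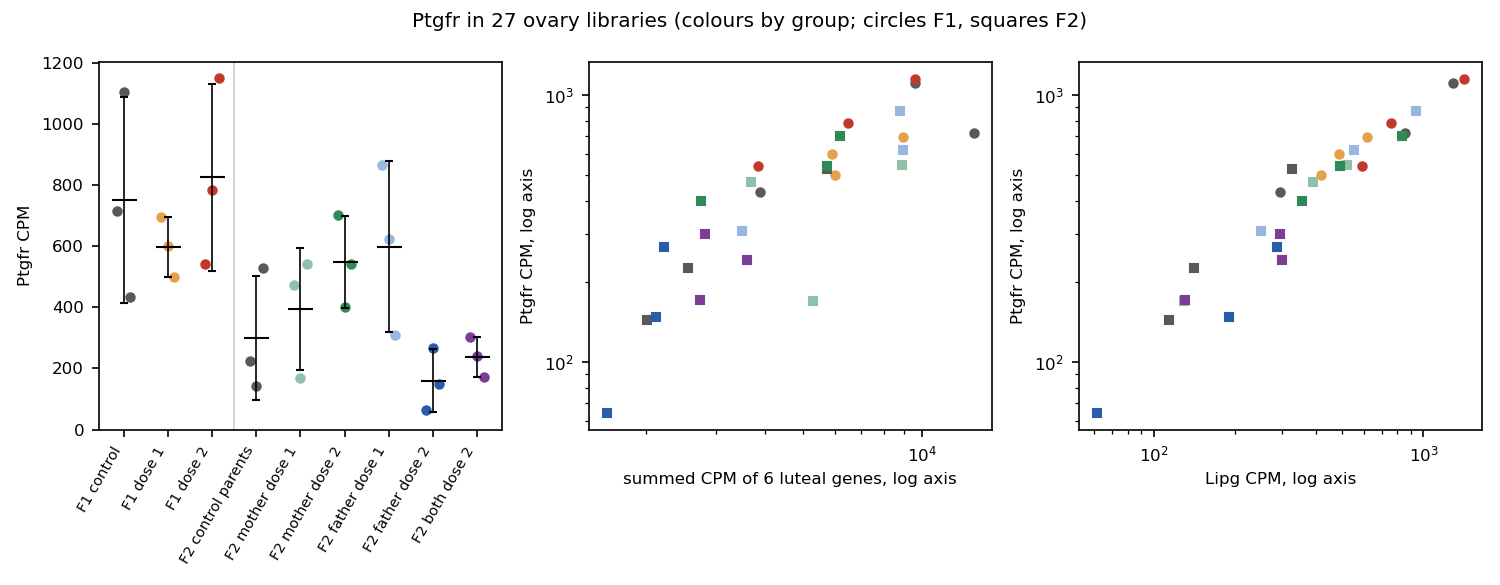
Ptgfr CPM in each of 27 ovary libraries by group (left; points, with mean and SD of 3 libraries), and against the summed CPM of 6 luteal genes (middle) and Lipg CPM (right) on log axes, coloured by group with circles for F1 and squares for F2. Ptgfr runs from 64.5 to 1149 CPM and rises along both, more tightly along Lipg (r = 0.966) than along the luteal sum (r = 0.849).

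Tbxa2r was uneven among the ovaries, with a coefficient of variation of 69.9% against 58.0% for Ptgfr. Its 27 libraries ran from 4.17 to 37.4 CPM with a median of 9.54, and 4 of them stood above 18 CPM. Daughters of dose 1 mothers had 8.00, 25.0 and 33.8 CPM against 4.17, 11.2 and 5.80 in control parents' daughters. Libraries B and C were high and A was within the controls. The log2 fold change was 1.67 ± 0.48 with an adjusted p of 0.319, in a comparison where 0 of 9 members and 0% of all genes were called and 3 members and 9.20% of all genes had an unadjusted p under 0.05. DESeq2 gave 0.0339, and the main test without library A of the exposed group gave 2.07 with an adjusted p of 0.0469. The share of all genes that these fits called is not given here. The other high libraries were dose 1 A of F1, with 37.4 CPM beside 12.7 and 11.4 in B and C (log2 1.09 ± 0.47 against control, and 0.28 without A), and library B of dose 1 fathers, with 18.1 CPM beside 10.3 and 11.2.

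The genes most like Tbxa2r in ovary were Sod2, the mitochondrial superoxide dismutase (r = 0.892 over 27 libraries, 0.797 within groups), Stx1a, a syntaxin (r = 0.855), and Gna11 (r = 0.849), the alpha subunit of G11, which this receptor can use. Gna11 stood at 145, 184 and 198 CPM in daughters of dose 1 mothers against 120, 155 and 132 in controls (log2 0.37 ± 0.13, adjusted p = 0.382). Sod2 stood at 98.5, 189 and 223 CPM against 91.4, 107 and 76.4 (0.90 ± 0.23, adjusted p = 0.308). In dose 1 A of F1, the highest Tbxa2r library, Gna11 was at 234 CPM, its highest value. Tbxa2r and Gna11 are both on chromosome 10 with 18 genes between them. Of the summed marker lists, Tbxa2r went most closely with 8 endothelial genes (r = 0.636, and 0.371 without the 2 farthest libraries) and with 7 genes chosen as Leydig cell markers (r = 0.630, and 0.650 without the 2 farthest), of which theca and luteal cells express several too.

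**Figure D5:**
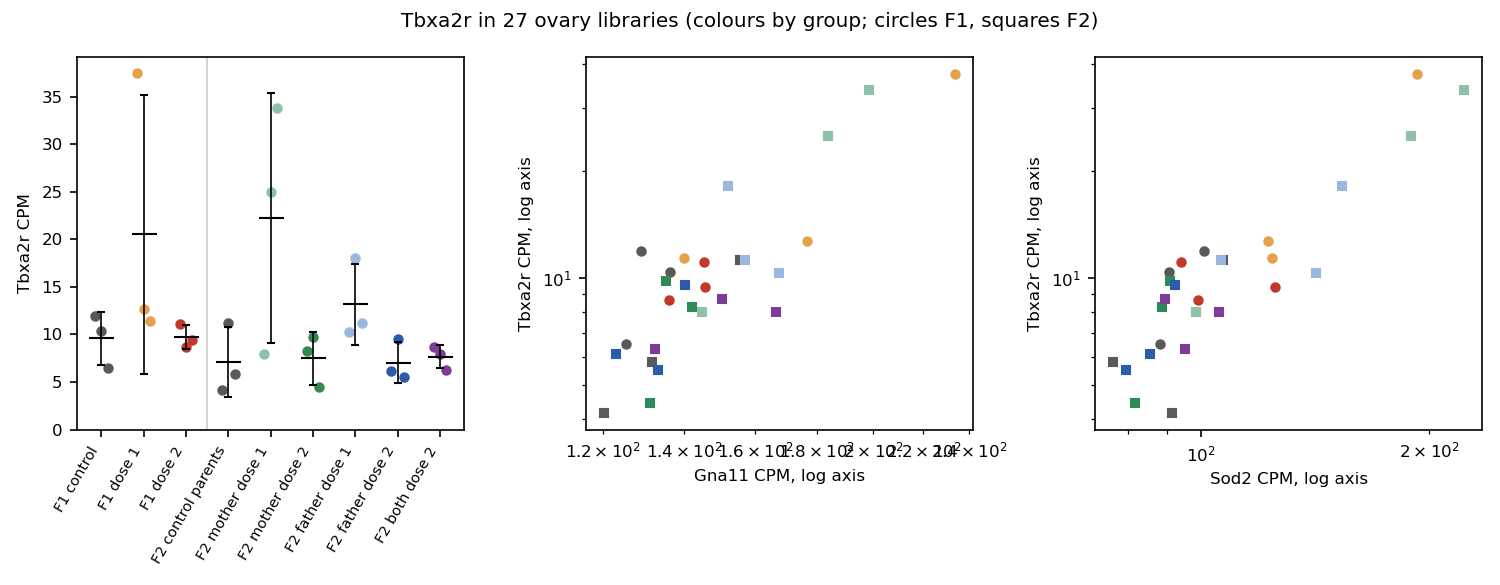
Tbxa2r CPM in each of 27 ovary libraries by group (left; points, with mean and SD of 3 libraries), and against Gna11 (middle) and Sod2 (right) on log axes, coloured by group with circles for F1 and squares for F2. The highest libraries, F1 dose 1 A (37.4 CPM) and mother dose 1 B and C (25.0 and 33.8), are also high in both other genes.

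Ptgir had log2 values from 0.02 to 1.30 in the 7 ovary comparisons with control, without a call. F1 controls had 1.48, 0.597 and 0.879 CPM. Dose 1 had 2.90, 2.56 and 1.96 CPM (log2 1.30 ± 0.39, edgeR's unadjusted p = 0.00817, adjusted p = 0.726), and dose 2 had 1.57, 1.57 and 2.32 (0.84 ± 0.38, adjusted p = 0.411), neither overlapping the controls. Entirely higher values held for 5.58% of all genes at dose 1 and 10.5% at dose 2. Ptger1 at dose 1 (1.69, 1.93 and 1.60 CPM against 1.37, 1.04 and 1.12) and Ptger4 at dose 2 (13.9, 8.33 and 8.23 CPM against 7.30, 6.92 and 7.62) were the other members without overlap. The main test called 0 of 9 members and 0% of all genes at dose 1 and at dose 2, with unadjusted p under 0.05 for 2 and 0 members (5.26 and 12.0% of all genes), and DESeq2 called none. Of the dose 2 libraries, A and B held oviduct genes, and A had the highest Ptger4 (13.9), Ptger1 (3.08) and Ptgdr2 (3.01 CPM) of all ovary libraries. The part of oviduct tissue in these values was not tested. A fit without these 2 libraries and control A held only library C of dose 2, too few to judge a call.

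In F2 ovaries Ptgir was higher in daughters of dose 1 mothers (1.76, 2.80 and 2.37 CPM against 1.14, 1.46 and 1.08; log2 0.92 ± 0.38, adjusted p = 0.480) and of dose 1 fathers (3.18, 2.78 and 1.18 CPM; 0.98 ± 0.37, adjusted p = 0.429) than in controls on average. At dose 2 its values were 0.02 ± 0.38 for mothers, 0.14 ± 0.38 for fathers and 0.63 ± 0.38 for both. Ptger1 in daughters of dose 1 mothers stood at 1.76, 1.92 and 2.30 CPM against 0.958, 1.59 and 1.16 (0.69 ± 0.30, adjusted p = 0.508). It and Ptgir were the members without overlap there, as were 7.21% of all genes with higher values. The like genes of Ptgir were Vac14 (r = 0.816), Atp4a (0.814) and Vnn1 (0.810).

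Ptger2 stayed between 8.25 and 19.6 CPM in the ovaries, a coefficient of variation of 21.4%. It was entirely above control parents' daughters (13.7, 8.25 and 12.3 CPM) in daughters of dose 2 mothers, at 19.6, 14.8 and 14.4 CPM (log2 0.52 ± 0.21, adjusted p = 0.791), as were 4.80% of all genes. Daughters of dose 2 couples had 13.9, 15.5 and 17.2 CPM (0.46 ± 0.21, adjusted p = 0.189), also without overlap, as did 12.6% of all genes. Its like genes were Hoxd9 (r = 0.838), Clip3 (0.831) and Col16a1, a collagen (0.828). The F1 values were -0.30 ± 0.22 and -0.41 ± 0.22.

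Slco2a1 in ovary was lowest in daughters of dose 2 couples, at 48.4, 59.7 and 54.1 CPM. Control parents' daughters had 62.3, 63.6 and 162 CPM, all higher (log2 -0.82 ± 0.32, adjusted p = 0.132), and 14.0% of all genes lay entirely lower. The value leaned on control library C, and without it was -0.20 with an adjusted p of 0.667. Against F1 controls (43.7, 70.5 and 55.0 CPM) the F2 controls had a log2 difference of 0.73 ± 0.31 (adjusted p = 0.324), and 0.11 without library C. Library C also had the highest summed level of 9 periovulatory genes, 520 CPM, against a median of 94.4 over the 27 libraries, and the next highest were F1 control C with 384 and F1 dose 1 C with 355. Slco2a1 stood at 116 CPM in F1 dose 1 C, second of all ovary libraries, and at 55.0 CPM in F1 control C. The part of ovulating follicles in the control was not tested.

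The remaining ovary receptors gave no call. Ptger3 ran from -0.26 to 0.46 and Ptger4 from -0.20 to 0.44 on the log2 scale over the 7 comparisons with control, with SEs of 0.33 to 0.37 and 0.23 to 0.24. Ptgdr2 had the widest SEs, 0.60 to 0.63, and values from -0.89 to 0.90. Fathers against mothers at dose 1 gave 0 of 9 calls and 0% of all genes, yet 4 members lay entirely lower for fathers: Ptger1, Ptger3, Ptger4 and Ptgdr2. That held for 5.45% of all genes, and unadjusted p was under 0.05 for 1 member and 4.93% of all genes, and DESeq2 called none. Ptgdr2 stood at 0.400, 0.440 and 0.945 CPM for dose 1 fathers and 2.79, 1.97 and 1.55 for dose 1 mothers (log2 -1.80 ± 0.63, unadjusted p = 0.0121, adjusted p = 0.947). Its counts may include reads of Ccdc86, since 39.0% of its exon bases overlap that gene on the opposite strand. The called share of all genes was 0% for dose 2 mothers and dose 1 fathers, 0.00573% for dose 2 fathers, 0.688% for dose 2 couples and 0% for any difference among the 3 F1 groups or the 6 F2 groups. By edgeR's test 0 of 9 members were called in each. Unadjusted p was under 0.05 for 1, 1, 0 and 2 members in these 4 comparisons with control (5.83, 9.63, 15.8 and 24.5% of all genes). It was so for 1 member in the test over F1 groups and 3 in that over F2 groups. The share of all genes at that level was not counted there. By edgeR's test the lowest adjusted p of a member over groups was 0.111, for Tbxa2r in F2. DESeq2 called 1 member, Tbxa2r, in the test over F2 groups and none in the others.

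Effects on members were not shown to differ between tissues or generations. The difference of ovary and testis fold changes was tested for each of the 7 comparisons in a joint fit, and the lowest adjusted p was 0.177, for Tbxa2r in dose 2 couples (1.62 on the log2 scale, ovary minus testis). Calls over all genes in those tests ran from 2 of 20351 (F1 dose 1) to 948 of 20661 (dose 2 couples). The effect of dose 2 in F2 of dose 2 couples minus that in F1 was tested within each tissue. The lowest adjusted p were 0.0600 for Slco2a1 in ovary (-1.30) and 0.0645 for Tbxa2r in testis (-1.94 on the log2 scale). Of all genes tested, 1275 of 17754 were called in ovary and 2070 of 19467 in testis.

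The members did not move as 1 block over the libraries. The highest Pearson r between 2 members over 27 libraries was 0.581 in ovary, for Ptgir and Tbxa2r, the receptors of prostacyclin and thromboxane, whose products have opposing effects on platelets and vessels. It was followed by 0.537 for Ptger3 and Ptger4, and the lowest was -0.532 for Ptger2 and Tbxa2r. In testis the range was from -0.340 (Ptgdr and Tbxa2r) to 0.477 (Ptger1 and Ptgdr2). Spearman's rho of the latter pair was only 0.230, and the highest rho in testis was 0.399, for Ptger4 and Ptgdr. In testis the genes most like Slco2a1 were Arcn1 (r = 0.791), Elmo1 (0.786) and Stau1 (0.779), those most like Ptgdr2 were Mgat4d (0.783), Echdc1 (0.764) and Dancr (0.764), and those most like Ptgdr were Zfp605 (0.665), Ubqln4 (0.645) and Fam76b (0.645). Slco2a1 in testis ran against the summed germ cell markers (r = -0.587, and -0.520 within groups). Low counts limit these values for the receptors of testis, most of which had under 50 counts per library.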

How the data were processed

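RNA was extracted with TRIZOL and libraries were made with a stranded mRNA ligation kit, per the labels' protocols. Per the submitters' processing notes, the authors name build mm39 and list featureCounts 2.0.3, TopHat2 2.1.1 and Bowtie2 2.4.5, beside DESeq2 1.32.0, SAMtools 1.13, FastQC 1.19 and bcl2fastq 2.20. Neither the counting strand nor the gene annotation is given in the sources used here. The deposited tables hold raw counts per gene, 1 table per tissue with 27 libraries each.

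For each tissue, 133 entries with a symbol carry no gene ID (0.319 to 0.377% of testis and 0.0591 to 0.0861% of ovary counts), and they were kept. CPM are counts-per-million of the library's total over all entries, and values per kb divide CPM by the exon length of GENCODE M21 (GRCm38). Tests used edgeR 4.0.16 in R 4.3.3: TMM scaling, genes kept by filterByExpr with a minimum count of 10, the robust quasi-likelihood test, and Benjamini-Hochberg adjustment over all genes kept, with 0.05 as the threshold. The fit held 9 F1 libraries, 18 F2 libraries, 27 libraries for F2 against F1 controls, or 12 control libraries with generation as a term for the tissues. Of 25 comparisons 14 were with a control. The tests were also run on simulated counts, whose outcome is not given here. Those counts had independent libraries, so they cannot speak to whether the libraries of a group are independent. Alternatives were DESeq2 1.42.0, RLE size factors, no filter, only the libraries compared, the letter as a block, and each library left out; fits with all 27 libraries, or without the libraries holding oviduct or epididymis genes, were added after seeing the data.

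Correlations are Pearson's r of log2 CPM, with 0.5 added to each count. All 10 members are named. From the other pathway lists at most 4 called genes per comparison are named, those with the smallest p, and for members with a mean of at least 1 CPM the 3 most alike genes. Members and lists were chosen with earlier results of these data known. Letters A, B and C paired libraries in 1 comparison only, F1 ovary dose 1 against control, where deviations from the group means correlated with r = 0.188, 0.201 and 0.350. That pairing comes from the data, not from the labels. The most alike replicates still differed by a chi-square per gene of 3.24, so all were counted separately. Promoter windows are from RefSeq (GRCm38.p6), matched by symbol.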

Additional observations from a re-analysis of the deposited data

How the results depend on the processing

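Of 151 counts of called members in the 25 comparisons under other settings, 141 were the same as the main count or close to it. So were 172 of 186 counts with 1 library left out. Nearly all main counts were 0, so such agreement says little about single calls. The only call in an exposed group, Ptger1 in testis F2 of dose 1 fathers, was kept in 1 of 6 fits with 1 library left out. Between the tissues, counts from 7 to 9 were taken as the same as the main 8. No member with an unadjusted p under 0.05 in the main test changed direction in these fits. DESeq2 called 1 member where the main test called 0 in ovary F2 of dose 1 mothers (Tbxa2r), ovary F2 of dose 2 fathers against mothers (Ptgfr), the test over the 6 ovary F2 groups (Tbxa2r), testis F2 of dose 1 mothers (Ptger1) and testis F2 of dose 2 couples (Tbxa2r), and 2 in the test over the 6 testis F2 groups (Ptger1 and Tbxa2r). With only the 6 libraries compared, the count was 0 for testis F2 of dose 1 fathers and 1 for testis F2 against F1 controls (Tbxa2r). Without the 2 testis libraries with epididymis genes it was 1, Ptger1, for dose 1 mothers and for the test over F2 groups. With 1 library left out, counts ranged from 0 to 1 for ovary dose 1 mothers and for testis dose 1 mothers, dose 1 fathers, dose 2 fathers and F2 against F1 controls, from 0 to 2 for testis dose 2 couples and the test over testis F2 groups, and from 7 to 8 between the tissues. The last was 8 in the main test. The cause of these changes was not tested, and the share of all genes called in these fits is not given here. Fits with the replicate block, the letter as a term, changed no member's call: the block gave 1 call for testis dose 1 fathers (Ptger1, adjusted p = 0.0400) and 0 for each other exposed group. Most testis receptors had under 50 counts per library, which limits their precision.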
